A study of Mus musculus with 12 samples.

Results

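The genes described here are 33 genes of pyruvate oxidation and the tricarboxylic acid (TCA) cycle, out of 20352 genes measured on exon arrays of mouse heart. The list groups genes by what their proteins do and uses no measured value in its rule, although it was drawn up with earlier results of these data known. Of the 33, 27 encode enzymes and the mitochondrial pyruvate carrier, and 6 encode the kinases and phosphatases that switch the pyruvate dehydrogenase (PDH) complex off and on. All 33 were measured, each as the median of 3 to 31 probesets (a probeset is a group of probes for 1 short stretch of a gene). The array's older names Brp44l and Brp44 are given here by their current symbols, Mpc1 and Mpc2.

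Pyruvate made in the cytosol enters mitochondria through a carrier of Mpc1 and Mpc2. There the PDH complex turns it into acetyl-CoA, which citrate synthase joins to oxaloacetate to start the cycle. The cycle's dehydrogenases pass electrons to the respiratory chain, which supplies nearly all of the ATP of a working heart. Heart muscle takes most of its acetyl-CoA from fatty acids, and PDH kinases phosphorylate the PDH complex and switch it off when fatty acids are the fuel.

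The comparison was of 6 arrays of sham-operated with 6 arrays of infarcted heart tissue from C57BL/6J mice labelled 12 weeks old. Tissue of the infarcted group came from the border zone of an infarct 2 weeks after surgery, and tissue of the sham group came from the matching region of hearts that had undergone a sham procedure at the same time before. No genotype, drug or other treatment is given for either group, and both groups are of the same strain and age. The labels number the arrays from 1 to 6 in each group without saying that each came from a separate mouse, so the p-values measure the spread between these samples.

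Values are log2 signals, and differences are infarcted minus sham on that scale. The array medians ran from 6.997 to 7.026 in the sham group and from 7.045 to 7.058 in the infarcted group. The tissue carried its heart label: the 17 cardiomyocyte markers had a median sham signal of 12.92. None of those 17 passed the test below in either direction, with 1 higher and 4 lower at an unadjusted limma p under 0.05, and their median difference was -0.04. By contrast 10 of 10 fibroblast markers and 11 of 12 macrophage and monocyte markers were higher in the infarcted hearts. In whole tissue, fewer cells of a type and less RNA per cell cannot be told apart.

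The genes of pyruvate oxidation and the TCA cycle fell in the infarcted border zone, with 1 kinase going the other way. Of the 33 genes, 25 were lower, 1 (Pdk3) was higher and 7 did not pass an adjusted p of 0.05 (limma, Benjamini-Hochberg over all 20352 genes). Among all genes, 20.3% passed in either direction, 10.2% lower and 10.1% higher. The median difference over the 33 genes was -0.30, against -0.04 over all genes. The infarcted and sham arrays did not overlap at all for 21 of the 33 genes, as for 11.3% of all genes. For each of the 25 genes that fell, the mean of the sham arrays was above every infarcted array. Choosing genes that passed as lower largely brings this about, so it is no further support.

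Among the 27 enzymes and carrier subunits, 21 fell, 6 did not pass and 0 rose (limma). At an unadjusted p under 0.05 the count was 24 lower and 0 higher. The count of 0 held with the median over probesets, while Me2 passed as higher with their mean or without dim probesets, as given with the malic enzymes. The falls were moderate: differences of the 21 ran from -0.73 for Mpc2 to -0.21 for Dlat. Many of these genes are bright, and bright genes fell more often in this tissue. Of the 1382 genes with a mean sham signal of 10 or more, 32.6% fell, against 16 of the 21 members that bright, with median differences of -0.13 and -0.26. The 4 enzymes that work in the cytosol (Aco1, Idh1, Mdh1 and Me1) had a median difference of -0.25 with 3 of 4 lower, beside -0.33 with 18 of 23 lower for the rest.

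**Figure D1:**
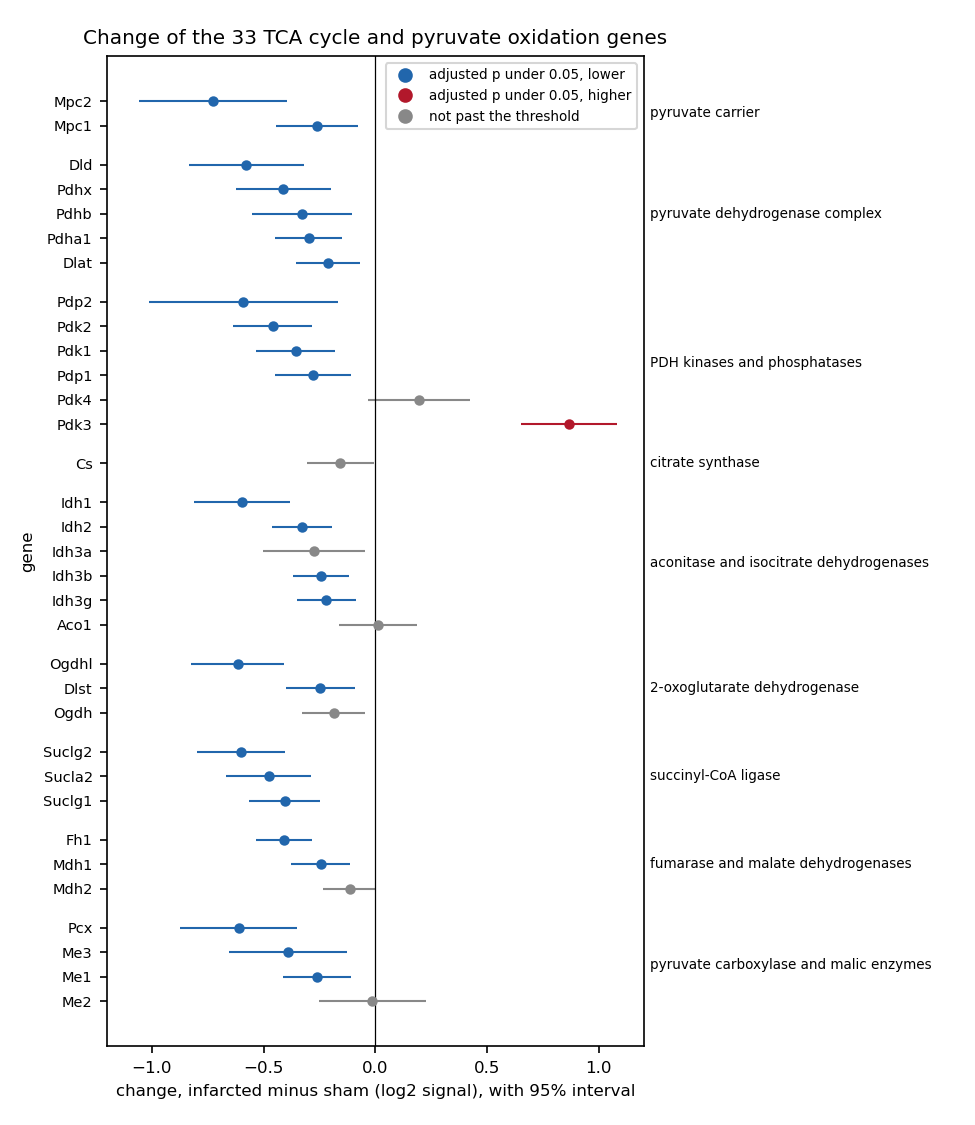
Difference of each of the 33 genes (x axis, log2 infarcted minus sham) with its 95% interval, grouped by role from the pyruvate carrier to the malic enzymes. Blue points (lower) and the red point (higher) passed an adjusted p of 0.05, and grey points did not. Pdk3 stands to the right of 0 at 0.87, while the 25 genes that fell lie between -0.73 and -0.21.

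The pyruvate carrier works as a pair of Mpc1 and Mpc2, and both fell. Mpc2 was at 8.31, 8.65 and 9.14 (lowest, median and highest) in the sham arrays and at 7.58, 7.98 and 8.29 in the infarcted arrays, so the groups did not overlap. Its signal fell to 60.4% of the sham level (95% interval 48.1 to 76.0%; difference -0.73, SE 0.15, adjusted p = 0.00395), the deepest of the 33 with the median over probesets. The 5 Mpc2 probesets moved by -0.31, -0.38, -0.42, -0.62 and -0.79, most of them by less than the gene value. Over the 20 alternatives the Mpc2 difference ran from -0.80 to -0.50. Mpc1 was at 10.30 ± 0.16 (SD, n = 6) in the sham and 10.04 ± 0.12 (SD, n = 6) in the infarcted arrays, and these overlapped. Its difference of -0.26 had an adjusted p of 0.0451, which rose to between 0.0614 and 0.0966 when sham array 1, 2, 4 or 6 or infarcted array 1, 3, 5 or 6 was left out. Mpc2 fell more than Mpc1 by -0.47 (exact permutation test over 924 arrangements of the arrays, two-sided, p = 0.00649, adjusted over 9 pairs of related genes 0.0117). Taking the mean of the probesets in place of their median brought this gap to -0.22 with an exact p of 0.193.

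All 5 genes of the PDH complex fell, with a median of -0.33. The complex is built of the decarboxylase E1 (Pdha1 and Pdhb), the acetyltransferase E2 (Dlat), the binding protein Pdhx and the dihydrolipoamide dehydrogenase E3 (Dld), which the 2-oxoglutarate and branched-chain complexes also use. Dld was at 10.43, 10.69 and 10.90 in the sham arrays and at 9.87, 9.99 and 10.56 in the infarcted arrays. The highest infarcted array reached into the sham range, while the other infarcted arrays lay lower. Dld fell to 67.0% of the sham level (interval 56.1 to 80.0%; difference -0.58, SE 0.12, adjusted p = 0.0034). Its 15 probesets moved by -0.88 to -0.29, most of them by less than the gene value. Over the 20 alternatives the Dld difference ran from -0.67 to -0.44.

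Pdhx, which ties E3 to the E2 core, was at 9.15 ± 0.10 in the sham and 8.74 ± 0.23 in the infarcted arrays (SD, n = 6 each), a difference of -0.41 (adjusted p = 0.00894). Pdha1, the E1 alpha subunit that carries the phosphorylation sites, was at 11.82 ± 0.08 and 11.52 ± 0.12, a difference of -0.30 (adjusted p = 0.00773). For both genes the groups did not overlap. Pdhb and Dlat had smaller margins over their spread, with differences of -0.33 (adjusted p = 0.0378) and -0.21 (adjusted p = 0.0347), and their groups overlapped. Each of these calls ended when any one of 9 of the 12 arrays was left out. For Pdhb the adjusted p was then 0.0508 to 0.0796 (without sham array 1, 2, 4, 5 or 6 or infarcted array 3, 4, 5 or 6), and for Dlat 0.0567 to 0.0733 (without sham array 1, 2, 3, 4 or 5 or infarcted array 3, 4, 5 or 6). Dld and Pdha1, from the same complex, differed by -0.28 in their changes, which did not pass (exact permutation p = 0.0584, adjusted over the 9 pairs 0.0657).

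The PDH kinases did not move together. Pdk1 and Pdk2 fell, Pdk3 rose and Pdk4 did not pass the test. Their promoters are printed here because the 4 genes encode the same kind of kinase yet differ in direction, so a reader can see the start regions side by side. Each is 300 bases from RefSeq (GRCm38.p6), from 250 before to 50 after a transcript start, on the gene's own strand. Where a gene has 2 starts the one farther upstream is shown. They lie at chr2:71872974-71873273 (plus strand) for Pdk1, chr11:95041322-95041621 (minus strand) for Pdk2, chrX:93832101-93832400 (minus strand) for Pdk3 and chr6:5496229-5496528 (minus strand) for Pdk4. Capitals mark matches to any of 6 motifs searched on both strands.
Pdk1 promoter: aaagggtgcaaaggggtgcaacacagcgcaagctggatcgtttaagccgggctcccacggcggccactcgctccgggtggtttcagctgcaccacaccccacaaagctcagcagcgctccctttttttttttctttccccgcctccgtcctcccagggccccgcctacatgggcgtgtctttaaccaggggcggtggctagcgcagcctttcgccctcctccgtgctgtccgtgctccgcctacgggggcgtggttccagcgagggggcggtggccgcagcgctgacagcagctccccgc
Pdk2 promoter: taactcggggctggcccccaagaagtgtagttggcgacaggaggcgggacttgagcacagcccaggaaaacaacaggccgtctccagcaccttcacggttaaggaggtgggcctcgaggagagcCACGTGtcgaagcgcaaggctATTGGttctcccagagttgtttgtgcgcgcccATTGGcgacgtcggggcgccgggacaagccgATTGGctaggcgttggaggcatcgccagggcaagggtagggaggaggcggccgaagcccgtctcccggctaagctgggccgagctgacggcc
Pdk3 promoter: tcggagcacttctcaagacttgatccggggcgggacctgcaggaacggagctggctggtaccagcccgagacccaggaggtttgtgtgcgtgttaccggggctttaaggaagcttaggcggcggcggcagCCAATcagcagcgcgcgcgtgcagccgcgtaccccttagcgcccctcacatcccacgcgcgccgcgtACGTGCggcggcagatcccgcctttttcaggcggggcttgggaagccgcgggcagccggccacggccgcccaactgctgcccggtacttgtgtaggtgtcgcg
Pdk4 promoter: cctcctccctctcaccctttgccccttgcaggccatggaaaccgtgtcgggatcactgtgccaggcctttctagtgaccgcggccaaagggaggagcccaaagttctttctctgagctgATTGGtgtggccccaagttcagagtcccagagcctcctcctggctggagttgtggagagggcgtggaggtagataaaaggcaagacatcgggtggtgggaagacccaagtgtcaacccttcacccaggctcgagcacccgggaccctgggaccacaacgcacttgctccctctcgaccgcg

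The 6 motifs were AAGGTCA (a nuclear receptor half-site), GCGCATGCG (NRF1), CCGGAAG (ETS factors), CACGTG (E-box), ACGTGC (the core bound by hypoxia-inducible factors) and CCAAT (NF-Y). The E-box and the hypoxia core can overlap by 5 letters. Pdk2 held CACGTG at -126 and the reverse strand of CCAAT at -105, -73 and -42, counted from the base before the start as -1 to the motif's first printed letter. Pdk3 held CCAAT at -120 and ACGTGC at -53, Pdk4 held the reverse strand of CCAAT at -131, and Pdk1 held none of the 6. Of all 32851 promoters in the table, 7.15% held the E-box, 5.915% the hypoxia core and 37.408% the NF-Y letters. Genes with several starts have overlapping windows that can hold 1 site several times, so the members were counted by gene. Of the 30 members with an entry (all but Idh3a, Pdp1 and Me2), 5 held the E-box, 2 the hypoxia core and 19 the NF-Y letters in at least 1 window, beside 9.504%, 7.741% and 41.844% of 15761 measured genes. The nuclear receptor half-site was in 1 member and 4.505% of those genes, the NRF1 letters in 1 and 2.836%, and the ETS letters in 4 and 13.705%. These matches describe the letters in the window and are no test of binding.

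Pdk3, the kinase known for its high activity and weak inhibition by pyruvate, rose, and was the only one of the 33 to do so apart from Me2 with other ways of combining its probesets. Its signal was at 5.84, 6.04 and 6.44 in the sham arrays and at 6.72, 6.96 and 7.08 in the infarcted arrays. That is a low signal: the Pdk3 sham mean of 6.06 was at the 42.8th percentile of all genes. Of its 14 probesets, 3 were under the 30th percentile of mean probeset signal. Every infarcted array was above every sham array. The rise was 1.82-fold (95% interval 1.57 to 2.11; difference 0.87, SE 0.10, adjusted p = 3.14e-05).

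Pdk2, a widely expressed kinase of heart muscle, was at 12.21, 12.27 and 12.36 in the sham arrays and at 11.46, 11.88 and 11.95 in the infarcted arrays. The groups did not overlap, and infarcted array 3 lay well under the others. Pdk2 fell to 72.7% of the sham level (interval 64.2 to 82.2%; difference -0.46, SE 0.08, adjusted p = 0.00126). Pdk1, a hypoxia-inducible kinase in many cells, was at 9.69, 9.90 and 9.95 in the sham arrays and at 9.20, 9.56 and 9.61 in the infarcted arrays. These groups were also apart, and Pdk1 fell to 78.1% (interval 69.0 to 88.3%; difference -0.36, SE 0.08, adjusted p = 0.00714).

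Pdk4, the kinase that fasting and PPAR agonists induce, was at 11.53, 11.80 and 12.11 in the sham arrays and at 11.80, 11.98 and 12.25 in the infarcted arrays. The ranges overlapped over much of their width. The difference of 0.20 had a 95% interval from -0.03 to 0.42 and did not pass (adjusted p = 0.227). Its change nevertheless differed from that of Pdk2, by 0.66 (SE 0.12). Pdk3 differed from Pdk2 by 1.33 (SE 0.13) and from Pdk1 by 1.22 (SE 0.14). All 3 gaps reached an exact permutation p of 0.00216, the smallest that 924 arrangements allow, and 0.00487 adjusted over the 9 pairs. For both gaps of Pdk3 this p was fixed in advance. The single genes already lay apart in opposite directions, so the p adds nothing to their own results. The pairs were chosen after the data were seen.

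The phosphatases Pdp1 and Pdp2 remove the phosphates that the kinases add. Pdp1 was at 9.36, 9.55 and 9.75 in the sham arrays and at 9.12, 9.31 and 9.35 in the infarcted arrays, a narrow but complete separation. It fell to 82.4% (interval 73.3 to 92.6%; difference -0.28, SE 0.08, adjusted p = 0.0212), and without infarcted array 6 the adjusted p was 0.0515. Pdp2 was at 6.60, 7.24 and 7.48 in the sham arrays and at 6.01, 6.49 and 7.02 in the infarcted arrays, with overlap. Its difference of -0.59 (SE 0.20, adjusted p = 0.0479) rested on 3 probesets that moved by -1.33, -1.18 and -0.17. The call for Pdp2 ended, at adjusted p of 0.0746 to 0.106, without sham array 1, 4, 5 or 6 or infarcted array 2, 3, 5 or 6.

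Among all 6 kinases and phosphatases, 4 fell and 1 rose, and without infarcted array 6 alone the count was 2 lower and 1 higher. The share of kinase forms was not measured, since the arrays give no common scale between genes.

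**Figure D2:**
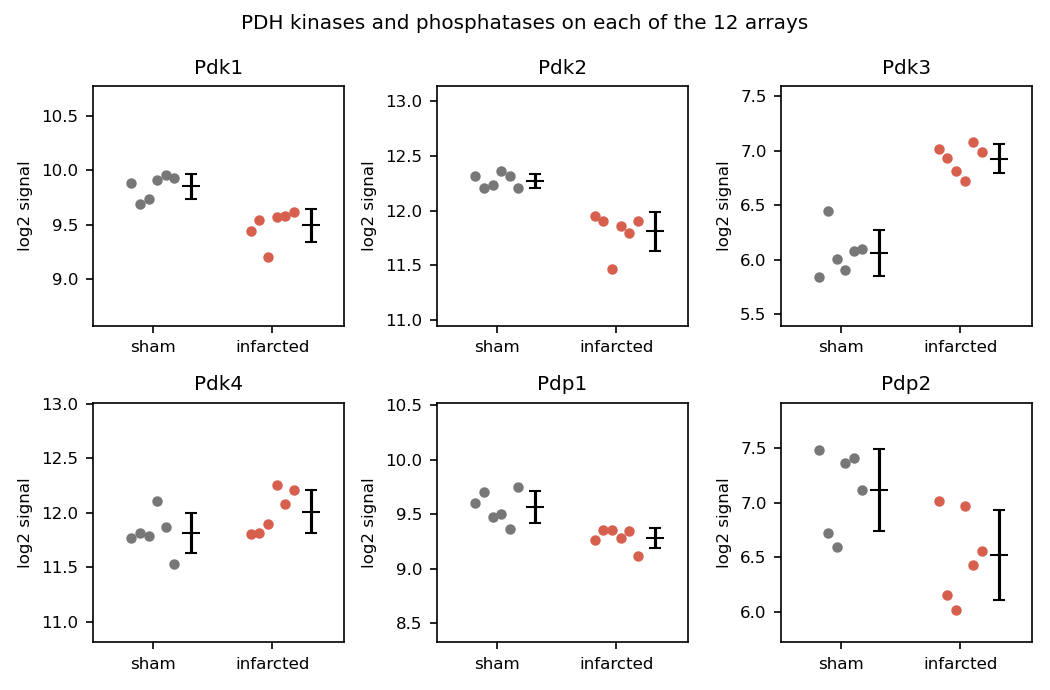
Log2 signal (y axis) of the 4 PDH kinases and 2 PDH phosphatases in each sham and infarcted array, with 1 point per array and the group mean ± SD. Pdk3 is higher in every infarcted array (6.72 to 7.08) than in any sham array (5.84 to 6.44), Pdk1, Pdk2 and Pdp1 are lower without overlap, and the groups of Pdk4 and Pdp2 overlap.

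The entry enzyme of the cycle, citrate synthase (Cs), did not pass. It was at 12.42, 12.48 and 12.60 in the sham arrays and at 12.15, 12.32 and 12.47 in the infarcted arrays. The difference was -0.16 with a 95% interval of -0.31 to -0.01 (adjusted p = 0.139). Each infarcted array was under the mean of the sham arrays, and the groups overlapped. With the mean over probesets the difference was -0.21 and passed (adjusted p = 0.00419), and it also passed with trend and robust variance (adjusted p = 0.0482).

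Among aconitase and the isocitrate dehydrogenases, 4 of 6 genes fell. Aco1, the cytosolic aconitase that doubles as an iron regulatory protein, differed by 0.01 (interval -0.16 to 0.19, adjusted p = 0.939). The NADP-dependent enzymes Idh1 (cytosol and peroxisomes) and Idh2 (mitochondria) both fell without overlap. Idh1 was at 9.44, 9.75 and 9.88 in the sham arrays and at 8.77, 9.17 and 9.28 in the infarcted arrays. It fell to 66.1% of the sham level (interval 57.0 to 76.8%; difference -0.60, SE 0.10, adjusted p = 0.000768).

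Idh2 was at 13.07 ± 0.04 in the sham and 12.75 ± 0.09 in the infarcted arrays (SD, n = 6 each), a difference of -0.33 (adjusted p = 0.0017). The gap between Idh1 and Idh2 was -0.27 (exact permutation p = 0.026, adjusted over the 9 pairs 0.039), and its exact p was 0.0519 without sham array 2 or without sham array 4. The NAD-dependent enzyme that carries the cycle's own flux is made of Idh3a, Idh3b and Idh3g. Idh3b and Idh3g fell by little, -0.24 (adjusted p = 0.00861) and -0.22 (adjusted p = 0.0219), in groups that did not overlap. The catalytic subunit gene Idh3a differed by -0.28 with a wider spread, 11.89 ± 0.12 against 11.61 ± 0.24 (SD, n = 6 each), and did not pass (adjusted p = 0.0848). Without infarcted array 2, the highest of its group, Idh3a passed at -0.34 (adjusted p = 0.0285), and it passed in 4 other settings, at adjusted p of 0.0105 to 0.0447. The Idh3g call ended without infarcted array 5 (adjusted p = 0.0502) or 6 (adjusted p = 0.0528).

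Of the 3 genes of 2-oxoglutarate dehydrogenase proper, Ogdhl and Dlst fell. Ogdhl, a relative of the main E1 gene Ogdh that is best known from brain, was at 9.73, 9.91 and 10.03 in the sham arrays and at 8.90, 9.35 and 9.49 in the infarcted arrays. The groups did not overlap, and Ogdhl fell to 65.2% of the sham level (interval 56.5 to 75.3%; difference -0.62, SE 0.10, adjusted p = 0.000432). Ogdh itself was at 12.79, 12.83 and 12.92 against 12.50, 12.66 and 12.83, a difference of -0.19 that did not pass (adjusted p = 0.0594). It passed as lower in 7 of 20 alternatives. These were 6 processing settings, with adjusted p from 0.00701 (mean over probesets) to 0.04998 (quantile normalization), and the fit without infarcted array 2 (-0.22, adjusted p = 0.0254). Ogdhl fell more than Ogdh by -0.43 (SE 0.08, exact permutation p = 0.00216, adjusted over the 9 pairs 0.00487).

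Dlst, the succinyltransferase core of the complex, fell by 0.25 on the log2 scale (adjusted p = 0.0251), with no overlap. Its adjusted p was 0.0508 to 0.0566 without sham array 1 or 4 or infarcted array 3, 5 or 6. The third component of the complex is Dld, described with the PDH complex.

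Succinyl-CoA ligase, the step that makes GTP or ATP directly, was the role in which all genes fell without overlap. Suclg2, the GTP-forming beta subunit, was at 10.14, 10.25 and 10.44 in the sham arrays and at 9.45, 9.64 and 9.93 in the infarcted arrays. It fell to 65.9% (interval 57.5 to 75.5%; difference -0.60, SE 0.09, adjusted p = 0.000354). Sucla2, the ATP-forming beta subunit, was at 11.41, 11.51 and 11.64 against 10.82, 11.06 and 11.31. That is a fall to 71.8% (interval 63.0 to 81.9%; difference -0.48, SE 0.09, adjusted p = 0.00148). The alpha subunit that both forms share, Suclg1, was at 10.95 ± 0.08 against 10.54 ± 0.13 (SD, n = 6 each; difference -0.41, adjusted p = 0.00143). The changes of Suclg2 and Sucla2 differed by -0.12 (SE 0.06), with an exact permutation p of 0.0433 and 0.0557 adjusted over the 9 pairs, which does not pass.

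Fumarase (Fh1) had the smallest p of the 27 enzyme and carrier genes. Its arrays were tight in both groups, at 12.03, 12.08 and 12.17 in the sham and 11.61, 11.70 and 11.73 in the infarcted hearts. It fell to 75.4% (interval 69.2 to 82.2%; difference -0.41, SE 0.06, adjusted p = 0.000199). Mdh1, the cytosolic malate dehydrogenase of the malate-aspartate shuttle, fell by 0.24 on the log2 scale without overlap (adjusted p = 0.012), and without infarcted arrays 4 and 5 together its adjusted p was 0.0645. Mdh2, the mitochondrial enzyme that closes the cycle, was at 13.10, 13.17 and 13.23 in the sham and 12.98, 13.05 and 13.10 in the infarcted arrays. Every infarcted array lay under every sham array by a narrow margin, yet the difference of -0.12 (interval -0.23 to 0.00) did not pass (adjusted p = 0.173). With the mean over probesets it was -0.15 and passed (adjusted p = 0.0231), and it also passed with trend and robust variance (adjusted p = 0.0225).

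Pyruvate carboxylase and the malic enzymes move carbon into and out of the pool of cycle intermediates. Pcx, which makes oxaloacetate from pyruvate, was at 8.41, 8.51 and 8.71 in the sham arrays and at 7.60, 7.94 and 8.38 in the infarcted arrays. The groups came close without overlapping, and Pcx fell to 65.4% (interval 54.6 to 78.4%; difference -0.61, SE 0.12, adjusted p = 0.00255). Me1, the cytosolic NADP-dependent malic enzyme, fell by 0.26 on the log2 scale without overlap (adjusted p = 0.0184). Me3, the mitochondrial NADP-dependent form, was at 9.10 ± 0.21 against 8.71 ± 0.25 (SD, n = 6 each), with overlap.

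The Me3 difference of -0.39 passed (adjusted p = 0.0377), and the call ended at adjusted p of 0.0524 to 0.0841 without sham array 1, 2 or 4 or infarcted array 3, 4, 5 or 6. The changes of Me1 and Me3 differed by 0.13 (SE 0.12), which did not pass (exact permutation p = 0.29, adjusted over the 9 pairs 0.29). Me2, the NAD-dependent mitochondrial form, differed by -0.01 (interval -0.25 to 0.23, adjusted p = 0.95). Its sign depended on how its 15 probesets were combined: 12 of the 15 were above 0, and the difference was 0.19 with their mean (adjusted p = 0.0206) and 0.25 without the dim ones (adjusted p = 0.0294).

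Single probesets showed whether the whole of each gene moved. Of 355 probesets in the 25 enzyme genes, 331 had a difference below 0, 151 were lower at an adjusted p of 0.05 and 0 were higher. Among all 241576 probesets in that fit, 4.3% were lower and 6.39% higher. All 9 carrier probesets were below 0. All 10 probesets of Fh1 fell, from -0.59 to -0.29, and 11 of 12 did in Suclg2, from -0.79 to -0.43 over all 12. In Pdk2, 12 of 13 fell, with all 13 below 0. The 14 probesets of Pdk3 were all above 0, from 0.19 to 1.25, and 6 of them rose. The 11 of Pdk4 were also all above 0 but within 0.11 to 0.23, and 0 passed.

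In 5 of the 33 genes the probesets changed unequally (limma diffSplice F test, adjusted over 15004 genes), while 9.34% of all genes tested did. The 5 were Ogdh (adjusted p = 1.87e-09), Idh2 (0.000131), Pdp2 (0.0161), Sucla2 (0.0212) and Pdk1 (0.0447). The 31 probesets of Ogdh ran from -0.66 to 0.28, with 29 below 0, and 5 fell. Those of Idh2 ran from -0.53 to -0.18, those of Sucla2 from -1.15 to -0.27 and those of Pdk1 from -0.85 to -0.08, and in these 3 genes every probeset was below 0. In Idh2 and Sucla2 probeset signal moved with these differences, and its part in them was not tested. Over the 11 Idh2 probesets, sham signal and difference had r = 0.91 (Spearman 0.86), the dimmer ones falling more, and over the 13 of Sucla2 r was 0.89 (Spearman 0.92). The relation was as close in Pdk2 (r = 0.87, 13 probesets) and Fh1 (r = 0.86, 10 probesets), which were not among the 5 genes. In Ogdh the same r was 0.08 (Spearman 0.46, 31 probesets), and it was not computed for Pdk1 or Pdp2. Without infarcted array 3 only 2 of the 5 genes passed, and without sham array 3, 4 or 5 or infarcted array 1 or 6 only 3 did.

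**Figure D3:**
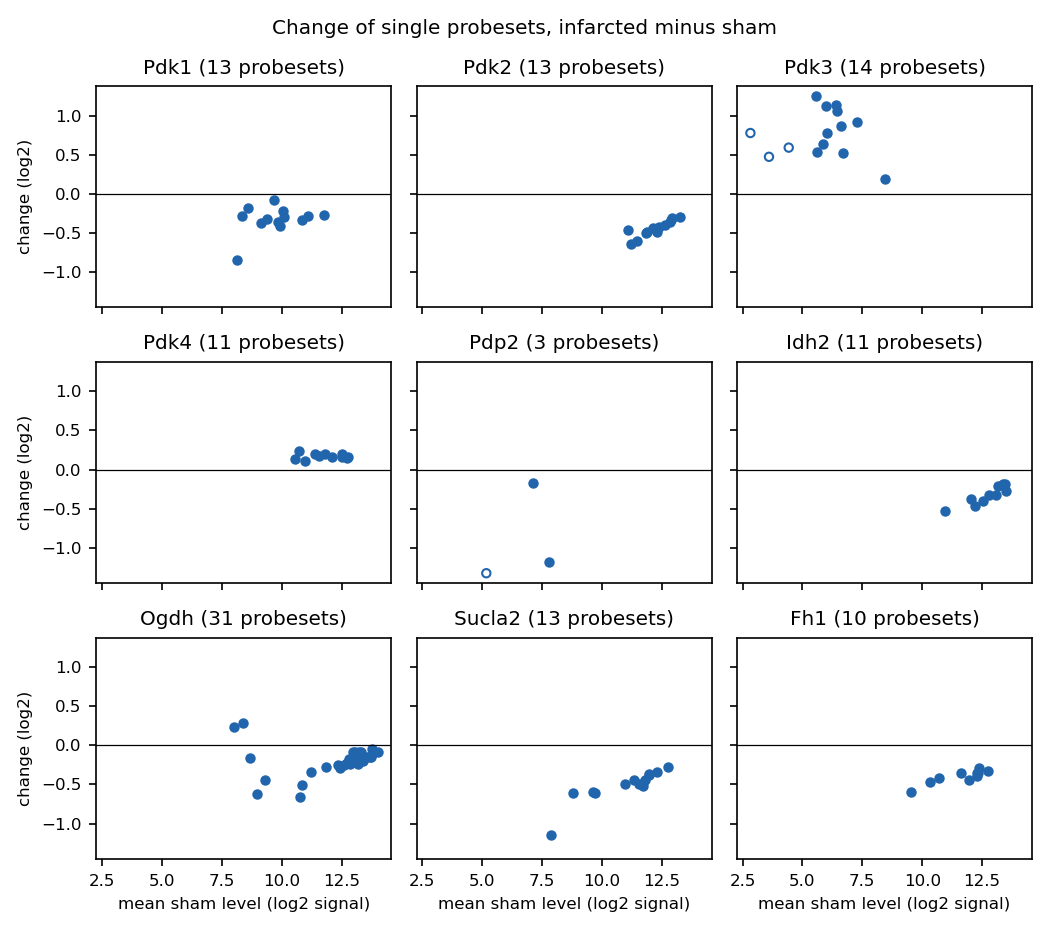
Difference of single probesets (y axis, log2 infarcted minus sham) against their mean sham signal (x axis, log2) for the 5 genes with unequal probesets, the other PDH kinases and Fh1, with open points for dim probesets. The Ogdh points spread from -0.66 to 0.28, the Fh1 points lie between -0.59 and -0.29, and the 14 Pdk3 points all lie above 0.

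Lists of genes next to the cycle gave the following counts, to be read beside the 10.2% of all genes that fell. Of 8 succinate dehydrogenase genes, 6 fell (median -0.30). All 4 subunits of the enzyme, which carries a step of the cycle and is also respiratory complex II, fell, and 2 of its 4 assembly factors did. The smallest p were those of Sdha (-0.45, adjusted p = 0.000195) and Sdhc (-0.37, adjusted p = 0.000761). For lipoate attachment and the branched-chain 2-oxo acid dehydrogenase, a complex built like PDH, 7 of 8 fell (median -0.58), with Bckdha at -0.77 (adjusted p = 3.56e-06) and Dbt at -0.79 (adjusted p = 2.41e-05). Of 6 genes that bring propionyl-CoA to succinyl-CoA, 5 fell (median -0.58), with the carboxylase subunits Pcca at -0.65 (adjusted p = 1.71e-05) and Pccb at -0.58 (adjusted p = 0.00019).

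The malate-aspartate shuttle and glutamate entry had 5 of 7 measured genes lower (median -0.30), with the aminotransferase Gpt2 at -1.06 (adjusted p = 8.04e-06) and the aspartate-glutamate carrier Slc25a13 at -0.38 (adjusted p = 0.00186). In the list of citrate export and use, 2 of 6 fell, the acetyl-CoA synthetase Acss1 (-0.56, adjusted p = 0.000161) and the carboxylase Acacb (-0.56, adjusted p = 0.000282), and the median was -0.04.

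At the fork between lactate and pyruvate, 3 of 7 genes fell and 2 rose (median -0.25). Ldhb, the lactate dehydrogenase chain typical of heart, fell by 0.54 on the log2 scale (adjusted p = 8.03e-05), and Ldhd, the D-lactate enzyme, fell by 0.75 (adjusted p = 2.22e-05). The lactate exporter Slc16a3 rose by 0.71 (adjusted p = 0.00154), and Ldha, the chain typical of glycolytic tissue, rose by 0.18 (adjusted p = 0.0457).

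Among lists of regulators, 10 of 14 measured PPAR alpha targets fell (median -0.43), with Cpt2 at -0.57 (adjusted p = 3.81e-05) and Acot2 at -0.57 (adjusted p = 8.03e-05). Of 12 hypoxia-inducible genes 2 fell and 1 rose, beside 10.2% and 10.1% of all genes, and the median was 0.04. The difference was above 0 for 9 of the 12, a larger share than the 8538 of all 20352 genes. Whether the 12 moved as a group was not tested. The named ones were Egln1 (-0.34, adjusted p = 0.00714), Bnip3 (-0.30, adjusted p = 0.0304) and Car9 (0.55, adjusted p = 0.00202), the last from a sham signal of 4.86, near background. Of 17 transcription factors and coactivators of oxidative genes, 6 fell and 2 rose (median -0.24). Rxra (-0.30, adjusted p = 0.00809) and Esrrb (-0.36, adjusted p = 0.0118) fell, while Hif1a (0.58, adjusted p = 8.56e-05) and Myc (0.68, adjusted p = 0.00166) rose.

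The fall of the cycle genes was present in every infarcted array but not to the same depth. The median deviation of the 27 enzymes and carrier genes from their sham means was -0.07 to 0.07 in the sham arrays. In infarcted arrays 1 to 6 it was -0.23, -0.16, -0.46, -0.29, -0.40 and -0.34. Array 2 had the mildest fall and the highest signal of the 6 for 13 of the 27 genes, and array 3 had the lowest for 13. Over the same arrays the median deviation of the 17 cardiomyocyte markers stayed between -0.05 and 0.01. These markers are very bright, with a median sham signal of 12.92 in a table that ends at 14.37. Whether differences are smaller at such signals was not tested. Over the 1382 genes with a mean sham signal of 10 or more, sham signal and difference had r = -0.02. That r cannot answer the question, because rises and falls could both shrink and leave it near 0. Over the 27 enzymes and carrier genes r was 0.27 (Spearman 0.40), the brighter ones falling less. Median deviations of the fibroblast markers in infarcted arrays 1 to 6 were 1.54, 1.47, 1.94, 1.58, 1.76 and 1.77. Those of the macrophage and monocyte markers were 0.61, 0.60, 0.89, 0.70, 0.79 and 0.82. In both lists array 2 was lowest and array 3 highest, the arrays with the mildest and the deepest fall of the cycle genes.

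Markers of other cells moved between the groups, and their part in the fall of the cycle genes was not tested. The summed fibroblast marker signal, on a log2 scale, was 13.33 to 13.50 in sham and 14.53 to 14.91 in infarcted arrays, and that of macrophage and monocyte markers was 11.26 to 11.62 and 12.12 to 12.54. The summed cardiomyocyte marker signal was 17.09 to 17.14 in sham and 17.04 to 17.10 in infarcted arrays. Endothelial markers were higher for 1 of 10 genes, and smooth muscle and pericyte markers for 5 of 9 with 1 lower. Of 8 atrial markers, 2 were higher and 2 lower, and their sum was 12.06 to 12.29 in sham and 13.55 to 13.94 in infarcted arrays. That sum was mostly Nppa, which went from 11.43 to 13.47. Dkk3 was also higher (difference 1.59, limma adjusted p = 2.74e-05), while Tbx5 and Stard10 were lower. Myl7, Myl4, Sln and Bmp10 did not pass, with differences of 0.72, 0.98, 0.41 and -0.13. The atrial medians set infarcted arrays 4, 5 and 6 (1.58, 1.36 and 0.88) apart from arrays 1, 2 and 3 (-0.33, -0.32 and -0.35), with Sln and Bmp10 near background in sham at 4.69 and 3.63. None of 10 adipocyte markers passed (limma; 0 higher and 2 lower at an unadjusted p under 0.05), while their median was 0.99 in infarcted array 5.

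Infarcted array 4 had the highest atrial median and infarcted array 5 the highest adipocyte median. Without them, 16 of the 33 cycle and pyruvate genes were lower and 1 was higher, and all 17 were among the 26 called with every array in the fit. Infarcted array 6, with an atrial median of 0.88, was kept in this smaller fit.

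**Figure D4:**
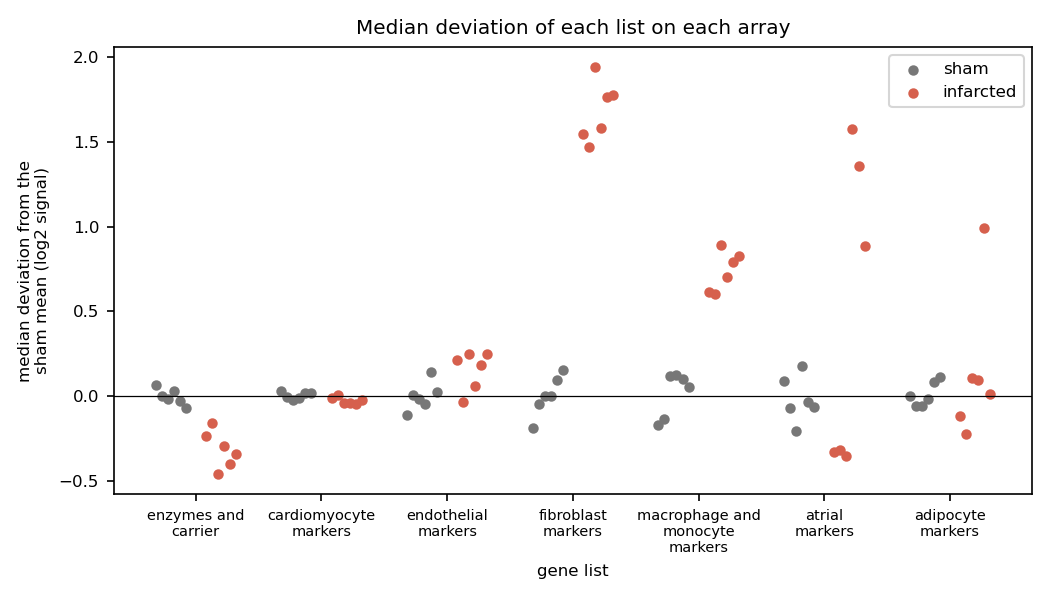
Median deviation from the sham mean (y axis, log2) in each of the 12 arrays for the 27 enzymes and carrier genes and for 6 marker lists of cell types, with grey sham and red infarcted points. The enzymes and carrier points of the infarcted arrays lie between -0.46 and -0.16, and those of the cardiomyocyte markers lie between -0.05 and 0.01.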

How the data were processed

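The deposited table holds 1 value per probeset and array, made with Affymetrix Power Tools (version not stated) per the submitters' processing notes. The authors' values were read as log2 signal, because they run from 1.52 to 14.37; no source used here gives the log base, background correction or normalization. If the base were another, differences would keep their order and tests, but not their folds. Of 241576 probesets, the 212097 with exactly 1 gene symbol in the platform annotation were used, with symbols updated through RefSeq, and a gene's value was the median over its probesets. Probesets shared between genes were left out. Depth has no meaning for arrays: precision is limited by the 6 arrays in each group.

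Groups were compared with limma 3.58.1 (R 4.3.3; lmFit and eBayes) on 20352 genes with Benjamini-Hochberg adjustment at 0.05. The same fit was run per probeset, and diffSplice tested unequal probesets after leaving out those under the 30th percentile of mean signal. The script was tested on simulated data. The members and lists were chosen with earlier results of these data known. All 33 members are named. Values in every array, as lowest, median and highest, were to be given for up to 3 largest rises and 8 largest falls among members past the threshold and for the PDH kinases and phosphatases; those of Cs, Ogdh, Fh1 and Mdh2 were added after their values were seen. From each list of neighbouring genes, up to 2 genes per direction with the smallest p are named. The 9 pairs of related genes (exact permutation test, two-sided) and the 6 promoter motifs were added after seeing the data. RefSeq promoters (GRCm38.p6) matched 30 of the 33 members. Alternatives were leaving out dim probesets or low genes, the mean over probesets, centring, quantile normalization, a replicate block, trend and robust variance, and leaving out arrays.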

Additional observations from a re-analysis of the deposited data

Results flagged for a closer look

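The Pdk2 signal of infarcted array 3 was 11.46, with the nearest of the other infarcted arrays at 11.79. This gap was 0.68 of the whole range of the group, over Dixon's 95% critical value for 6 samples. It was the only such sample among the 66 groups of arrays examined (33 genes in 2 conditions), and chance alone would mark about 1 in 20 groups. Pdk2 kept its call without that array.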

How the results depend on the processing

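Of the 26 genes called, 17 kept their call in all 20 alternatives. Of the 7 not called, 2 (Aco1 and Pdk4) were never called, and Cs, Idh3a, Ogdh, Mdh2 and Me2 passed in at least 1. Leaving out infarcted arrays 4 and 5 brought the members called to 17 and the PDH kinases and phosphatases called to 3, with fewer samples in the fit. With 1 array left out, members called ran from 18 to 27, PDH kinases and phosphatases from 3 to 5, and genes with unequal probesets from 2 to 5. Me2 changed sign when its probesets were averaged (0.19, adjusted p = 0.0206) and when dim ones were left out (0.25, adjusted p = 0.0294); the cause was not tested. Over all members, 237 of 264 results under the other settings kept direction and call, 11 lost the call, 14 gained it and 2 reversed; with arrays left out these were 345, 49, 2 and 0 of 396. Centring gave 1748 genes higher and 2956 lower of all genes, beside 2050 and 2074, with the members' median at -0.34. Same-numbered arrays shared little deviation (correlations -0.05 to 0.10), and 2 sham arrays correlated best with the infarcted array of the same number. This gave no clear sign of pairing but cannot exclude it. With the replicate block 25 members and 3802 genes passed. The calls of Dlat (adjusted p = 0.0636) and Pdp1 (adjusted p = 0.0601) then ended, and Idh3a passed (adjusted p = 0.0422).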
